A study of Sus scrofa with 3 samples.

Results

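The liver methylome of Chinese wild boar stood apart from those of both other pigs studied at 1367 autosomal regions. These regions are differentially methylated regions (DMRs), stretches of neighbouring CG sites whose methylation level differs between 2 methylomes. They were taken from the authors' list for Enshi black pig against Chinese wild boar, and each overlapped by at least 1 bp a region of the list for Large White pig against Chinese wild boar and no region of the list for Enshi black pig against Large White pig. The wild boar level also had to lie on the same side of both other breeds. Of the 7829 autosomal regions of the first list, 1367 (17.5%) met this rule, from 25044 regions in the 3 lists on all sequences. Chinese wild boar was lower in 855 of them (10.9% of the list) and higher in 512 (6.54%).

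Liver DNA of male pigs at postnatal day 90 was treated with bisulfite and sequenced in 3 breeds, with 1 methylome per breed and no further treatment. Enshi black pig is a Chinese domestic breed, Large White pig a European domestic breed, and Chinese wild boar the undomesticated form. The labels name 3 male pigs in the growth protocol and 12 cycles of PCR, and pooling of animals was not given in the sources used here. Animal, breed and library therefore cannot be told apart, no difference has a replicate check, and no test was run between breeds.

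In vertebrate DNA most CG sites carry a methyl group on the cytosine, which is copied to the new strand after each cell division. Active promoters, enhancers and many CG-rich stretches are the usual exceptions, and their level can differ between cell types, alleles and individuals. A level between the extremes in a tissue can come from a mixture of cells or from the 2 copies of a chromosome, and bisulfite data averaged over DNA molecules do not separate them.

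Each level is the share of methylated cytosine that the authors estimated for a region in one breed, smoothed over neighbouring sites and given here in percent. Differences between levels are given in percentage points. Enshi and wild boar levels are those of the first list, and Large White levels those of the overlapping region of the second list, so the pair of bounds can differ. The columns of levels carry numbers and not breeds, so each was given its breed from the sequence of breed codes in the table's name. In the labels the Large White sample carries the comparison of wild boar with Enshi black pig, and the wild boar sample that of wild boar with Large White pig. The direction of every difference rests on that reading. The depth behind each level is unknown. Methylation lists hold no marker of liver cells, so the tissue was not checked, and a difference in the makeup of cells was not tested. The regions were chosen by these same levels, so the values that follow describe them and are no evidence for the rule.

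The narrowing from the list to these regions took 3 steps. Of the 7829 regions, 1467 (18.7%) overlapped a region at which Large White pig and Chinese wild boar differed, and 1375 of those were free of any region at which Large White pig and Enshi black pig differed. In 8 of the 1375 wild boar was lower than one breed in its list and higher than the other, and those were dropped. By comparison, 2059 regions of the list (26.3%) overlapped a region at which Enshi black pig differed from Large White pig. In the second list 27 of the 1367 regions had 2 counterparts, of which the one with more overlap was used. The counterparts were 1350 distinct regions, since 34 of the 1367 shared theirs with a neighbour.

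Regions lower in wild boar made up 62.5% of the 1367 (exact binomial 95% interval 59.9% to 65.1%, counting error only). The list itself leaned the other way. Wild boar was lower at 3534 of its 7829 regions (45.1%) and higher at 4295 (54.9%), and in the list against Large White pig the shares were 49.0% lower and 51.0% higher. The rule retained 24.2% of the regions with a lower wild boar level and 11.9% of those with a higher one. The same rule with each other breed in the place of wild boar gave 1960 regions for Enshi black pig, 71.5% of them lower (69.4% to 73.5%), and 1154 for Large White pig, 69.6% of them lower (66.8% to 72.2%). A majority of lower regions was thus found for each of the 3 breeds.

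Where wild boar was lower, the other breeds were mostly near full methylation and wild boar was at an intermediate level. The median level of the 855 regions was 84.6% for Enshi black pig (interquartile range 69.4% to 93.1%), 85.5% for Large White pig (68.8% to 94.3%) and 42.3% for Chinese wild boar (28.6% to 54.1%). Both other breeds were above 80% and wild boar between 20% and 80% in 437 regions (51.1%). All 3 breeds were between 20% and 80% in 241 regions (28.2%). A full switch, from above 80% in both other breeds to under 20% for wild boar, was listed for 20 regions (2.34%).

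Where wild boar was higher, the pattern was turned around. The median level of the 512 regions was 49.0% for Enshi black pig (37.0% to 59.1%), 48.0% for Large White pig (37.0% to 59.7%) and 83.9% for Chinese wild boar (69.7% to 94.8%). Intermediate levels in both other breeds went with a wild boar level above 80% in 272 regions (53.1%), and all 3 breeds were intermediate in 200 (39.1%). Both other breeds were under 20% with an intermediate wild boar level in 16 regions and with a wild boar level above 80% in 3. In both directions, then, the commonest pattern had one side of the difference above 80% and the other at an intermediate level.

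**Figure D1:**
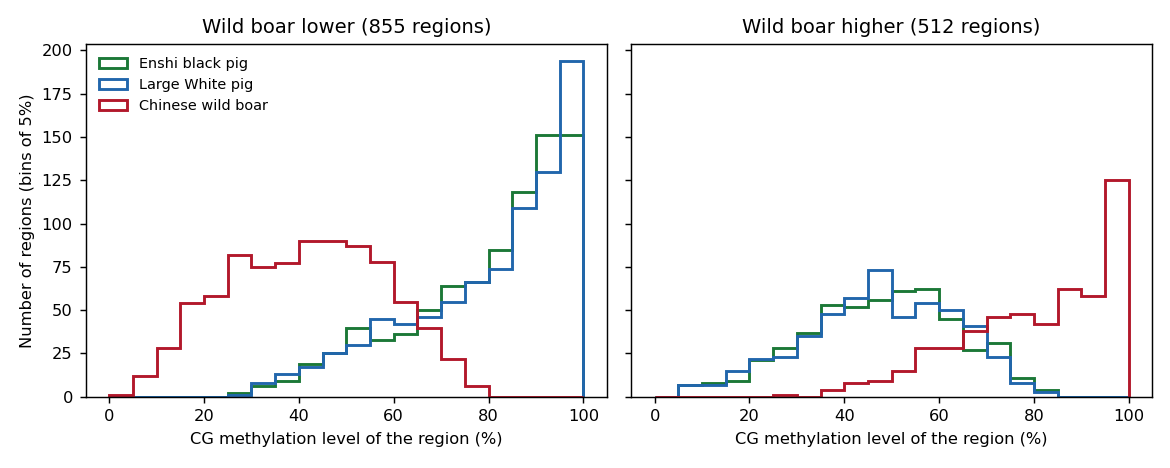
Number of regions (y axis, bins of 5 percentage points) by CG methylation level in percent (x axis) for each breed, in the 855 regions lower and the 512 regions higher in Chinese wild boar. The curves of Enshi black pig and Large White pig lie over each other, with wild boar at a median of 42.3% on the left and 83.9% on the right.

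The size of a region's difference was taken as the smaller of the differences from Enshi black pig and Large White pig. Its median was 33.2 points in the lower regions (interquartile range 24.9 to 44.3, range 11.5 to 89.0) and 26.6 points in the higher regions (22.4 to 36.2, range 2.14 to 81.4). The region with the smallest value among the lower ones was chr4:92278197-92281078 on Sscrofa10.2, the build of all coordinates here. Among the higher ones it was chr1:122399102-122399349, where wild boar was at 85.7% in the first list and 59.8% over the different bounds of the second. Regions that only touch their counterpart rest on unlike stretches of this kind: 6 overlapped it by 1 bp and 48 by under 50% of the shorter region. Just outside the rule, chr6:155178120-155178227 (Enshi 54.2%, wild boar 35.0%) ended 13 bp before a region of the second list with Large White pig at 52.9% and wild boar at 32.1%. Just inside it at the other bound, the region chr6:4064709-4064805 lay 17 bp from a region at which Large White pig and Enshi black pig differed.

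The 10 widest differences among the lower regions were in regions of 55 to 337 bp with 4 to 10 CG sites. Wide regions held fewer CG sites than the rest but were hardly shorter: with at least 40 points in both lists the median was 6.5 CG sites in 178 bp for the lower and 6 in 210 bp for the higher direction, against 10 in 185 bp and 13 in 218.5 bp over all. The widest of all was chr2:98339581-98339652, a stretch of 72 bp with 4 CG sites, where Enshi black pig was at 98.8%, Large White pig at 99.0% and Chinese wild boar at 9.80%. At chr7:59812104-59812355, 252 bp with 5 CG sites, the levels were 90.8% for Enshi black pig, 98.4% for Large White pig and 9.46% for wild boar. The third was chr9:18537346-18537402, 57 bp with 4 CG sites, at 99.4% for Enshi black pig, 99.6% for Large White pig and 19.2% for wild boar. In each, nearly full methylation in both other breeds stood against a low level in wild boar. The authors' standard error of a listed site's difference from Enshi black pig reached 7.70 points in the first, 9.17 in the second and 12.7 in the third. Chromosome 11 held a pair among the 10 widest: chr11:18476893-18476998 (95.7% for Enshi, 96.0% for Large White, 16.2% for wild boar) and chr11:77155855-77155920 (97.1%, 97.0% and 15.2%, in the same order). The remaining 5 were chr1:255875040-255875193, chr16:83478264-83478342, chr3:40698221-40698275, chr7:60427355-60427469 and chr5:9759202-9759538. Across all 10, wild boar lay between 9.46% and 20.3%, Enshi black pig between 90.8% and 99.4% and Large White pig between 88.7% and 99.6%.

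Among the higher regions, chr6:49653320-49653611 had the widest difference. It spans 292 bp with 14 CG sites, and its level was 5.94% for Enshi black pig, 16.4% for Large White pig and 97.8% for Chinese wild boar. It was 1 of the 3 full switches in this direction, with chr9:133147662-133147797 (9.56% for Enshi, 8.45% for Large White, 82.0% for wild boar) and chr9:19262386-19262714 (6.51%, 9.73% and 81.7%, in the same order). At chr8:80328259-80328516, which holds 23 CG sites in 258 bp, Enshi black pig was at 16.0%, Large White pig at 27.0% and wild boar at 96.6%. The other 6 of the 10 widest were chr8:19811514-19811888, chr3:92850633-92853052, chr13:31817498-31817843, chr7:121837314-121837475, chr14:120679276-120679492 and chr11:47259864-47259963. Wild boar was between 72.5% and 98.2% in the 10 regions, and the highest level of either other breed was 37.8%.

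**Figure D2:**
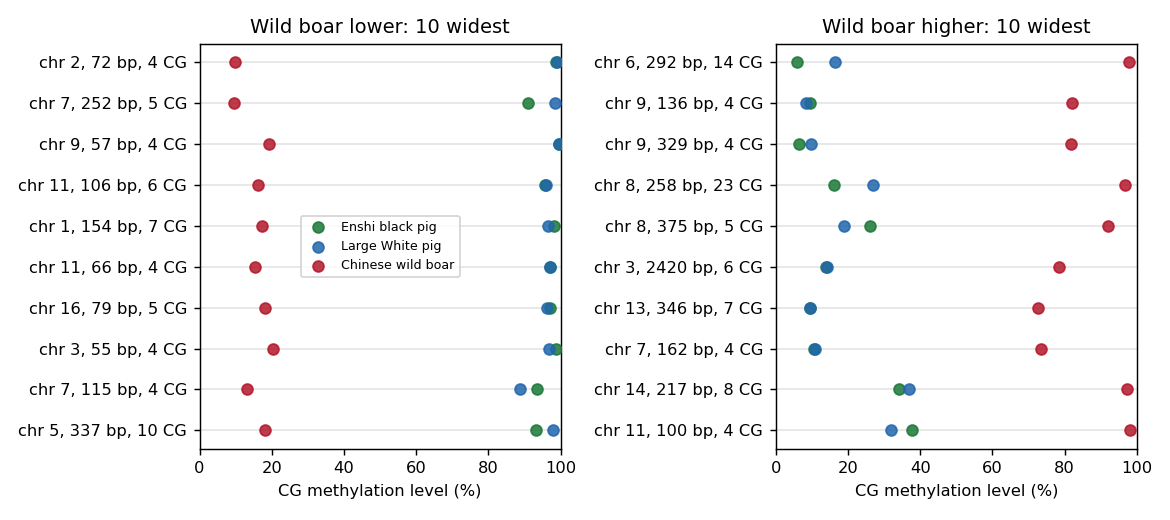
CG methylation level in percent (x axis) of each breed in the 10 regions with the widest difference in each direction, named by chromosome, length and number of CG sites (y axis). Each point is the authors' level of 1 methylome, and the wild boar point lies at 9.46% to 20.3% on the left and 72.5% to 98.2% on the right.

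The regions with most CG sites were intermediate in all 3 breeds, with differences on both sides of the medians. The lower region with most, chr13:213109295-213110013, held 104 CG sites in 719 bp, and its level was 66.9% for Enshi black pig, 62.7% for Large White pig and 39.4% for Chinese wild boar. At chr5:24356430-24357773, with 98 CG sites, the levels were 68.1% for Enshi black pig, 56.9% for Large White pig and 25.6% for wild boar. At chr17:68422354-68422880, with 92 CG sites in 527 bp, they were 61.4%, 54.6% and 35.4% in the same order. The smaller difference of the 3 lay between 20.5 and 28.1 points, under the median of 33.2. The higher region with most CG sites, 132 in 1007 bp, was chr18:54978573-54979579, at 42.0% for Enshi black pig, 45.6% for Large White pig and 76.1% for wild boar, a smaller difference of 31.2 points that was above the median of 26.6. At chr17:33152692-33153248, with 87 CG sites, the levels were 37.1% for Enshi black pig, 41.6% for Large White pig and 66.3% for wild boar. The 96 CG sites of chr6:368861-369876 differed least, at 46.9% for Enshi black pig and 55.5% for wild boar. Only 10 CG sites of its counterpart in the second list were counted there, at 54.1% for Large White pig and 76.2% for wild boar.

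The longest regions were sparse in CG sites. Among the lower ones chr8:51694179-51699061 reached 4883 bp with 4 CG sites, at 81.5% for Enshi black pig, 80.5% for Large White pig and 62.7% for Chinese wild boar. Its CG sites went in opposite directions. The 2 listed singly, both at its start, were at 98.3% for Enshi black pig and 26.2% for wild boar, and a region's level is the plain mean of its sites, so the other 2 averaged 64.7% for Enshi black pig and 99.2% for wild boar. Such a reversal was rare: of the regions with some but not all CG sites listed, the unlisted ones averaged the opposite way in 3 of 327 lower and 1 of 182 higher regions. The 4612 bp of chr14:105528316-105532927 held 27 CG sites, at 97.5% for Enshi black pig, 95.5% for Large White pig and 49.7% for wild boar, and chr6:150986399-150990692 was the next in length with 4294 bp. The longest higher regions were chr3:142949900-142953825, with 3926 bp, and chr5:20145752-20148489, with 2738 bp. In the latter, wild boar was at 97.5% and Enshi black pig at 63.0%. Its counterpart in the second list was 306 bp long and overlapped it by 116 bp, with Large White pig at 62.2% and wild boar at 87.6%.

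The relation of difference to CG density held across the regions. Lower regions with fewer than 2 CG sites per 100 bp (62 regions) had a median smaller difference of 45.8 points, and those with 10 or more (195 regions) one of 22.7 points. The same medians in the higher regions were 39.7 points (30 regions) and 22.3 points (144 regions). In the bins between, from 2 to 5 and from 5 to 10 CG sites per 100 bp, it was 40.3 and 33.6 points in the lower and 37.1 and 25.4 points in the higher regions. In lower regions the Enshi median over the 4 bins, from sparse to dense, was 84.9%, 86.9%, 87.9% and 68.2%, and the wild boar median was 36.4%, 41.0%, 44.5% and 41.1%. The wild boar level was thus higher in each of the first 3 bins in turn, and the Enshi level was lower in the densest bin alone. In higher regions the wild boar median was 89.2%, 89.8%, 85% and 73.6%, and the Enshi median 44.0%, 46.2%, 51.5% and 49.9%. Across regions, density and smaller difference had a Spearman rho of -0.53 in the lower (n = 855, Pearson r = -0.48) and -0.65 in the higher direction (n = 512, r = -0.55). These are descriptions across regions of the same 3 methylomes, and the limits that the caller set on both measures were not given in the sources used here.

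**Figure D3:**
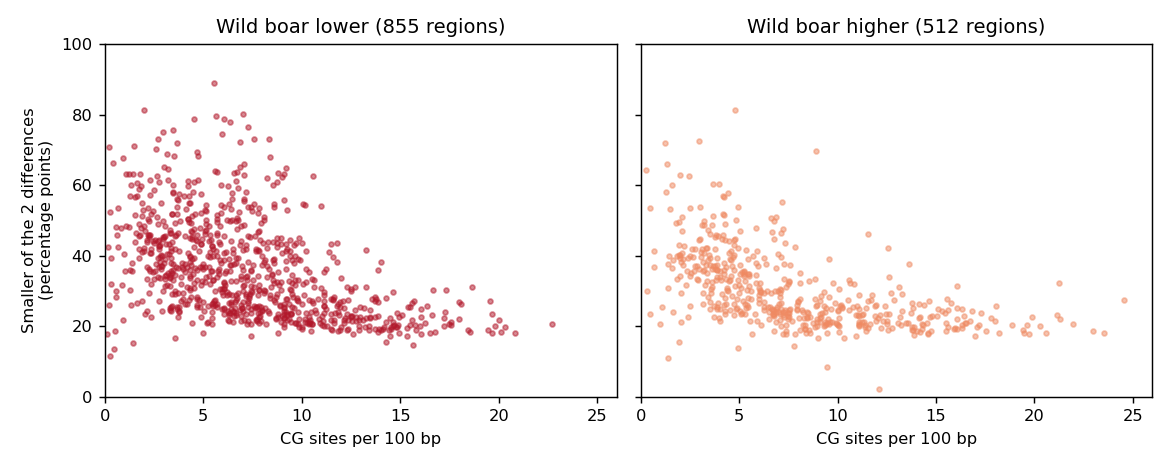
Smaller of the differences of Chinese wild boar from the other breeds in percentage points (y axis) against CG sites per 100 bp (x axis), with 1 point per region, for the 855 lower and 512 higher regions. Under 2 CG sites per 100 bp the median is 45.8 points on the left and 39.7 points on the right. At 10 or more CG sites per 100 bp it is 22.7 points on the left and 22.3 points on the right.

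Compared with the rest of their list, these regions were longer and held more CG sites. The 855 lower regions had a median of 10 CG sites in 185 bp, and the other 2679 regions with a lower wild boar level had 7 in 161 bp. The 512 higher regions had a median of 13 CG sites in 218.5 bp, and the other 3783 regions with a higher wild boar level had 8 in 180 bp. For density the gap was wider in the higher direction. Regions with 10 or more CG sites per 100 bp made up 28.1% of the higher regions against 14.8% of the others in the list, but 195 of the 855 lower regions (22.8%) against 536 of the 2679 others. The overlap that the rule asks for is tied to length, and its part in these medians was not tested. Among higher regions apart in the other breeds by the same rule, 24.9% of those of Enshi black pig and 23.6% of those of Large White pig had 10 or more CG sites per 100 bp. Length and number of CG sites were also alike. The lower regions of Enshi black pig had a median of 9 CG sites in 209 bp and those of Large White pig 10 in 197 bp. Their higher regions had 13 in 212 bp and 11 in 210 bp, in the same order.

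The rule left out regions listed between Large White pig and Enshi black pig, so their closeness here largely follows from it. Whether equal bounds select further for like levels was not tested. How alike these breeds were is given where both lists had the same bounds, which was so for 445 regions (32.6%), 325 lower and 120 higher. In these the median distance between Large White pig and Enshi black pig was 2.69 points, 313 regions (70.3%) were within 5 points and 380 (85.4%) within 10 points. Enshi black pig was the higher of the pair in 215 of the 445. The distance was smaller where wild boar was lower (median 2.21 points) than where it was higher (4.24 points). The medians of Enshi black pig and Large White pig were 90.6% and 92.0% in the former, close to the upper bound. In the latter they were 46.9% and 47.7%, and the part of level in this distance was not tested. Some regions free of a listed difference between the other breeds still had one. At chr8:120013834-120013893, a 60 bp region, Enshi black pig was at 20.6%, Large White pig at 51.4% and Chinese wild boar at 98.0%. At chr18:47220552-47220702 the levels were 63.2% for Enshi black pig, 91.2% for Large White pig and 12.3% for wild boar, and at chr1:61354986-61355166 they were 99.7%, 73.3% and 25.9% in that order. The wild boar level of a region appears in both lists, and over the same bounds it differed by a median of 0.00968 points, with a largest difference of 16.7 points among 6 regions in which the lists counted unequal numbers of CG sites.

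Single CG sites were listed by the authors as differing in part of these regions. In the lower regions 2706 sites in 383 regions (44.8%) were listed between Chinese wild boar and Enshi black pig and 2496 in 366 regions between Large White pig and wild boar. The higher regions held 1599 such sites in 206 regions and 1038 in 173 regions. Sites listed between Large White pig and Enshi black pig were nearly absent, with 5 in the lower regions and 1 in the higher. The rule had left out regions listed between those breeds, so this contrast largely follows from it. At the 1626 sites of lower regions found in both wild boar lists the median level was 89.8% for Enshi black pig, 91.7% for Large White pig and 28.9% for wild boar. At the 551 such sites of higher regions the levels were 34.7%, 35.4% and 90.6% in that order. Every one of these sites differed in the direction of its region in both lists. The sites come from the same comparisons as the regions, so this largely follows from the choice of regions and is no support for it. The authors' standard error of a site's difference had a median of 5.18 points in the lower and 3.50 points in the higher regions for the list with Enshi black pig, and covers reads of 1 methylome each and not animals.

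The site levels show the shape of single regions. In chr6:49653320-49653611 all 14 CG sites were listed, with Enshi black pig at 4.93% to 6.09%, Large White pig at 13.1% to 20.2% and Chinese wild boar at 97.7% to 97.9%, and a standard error of at most 5.75 points. That region was flat from end to end in each breed. A gradient was present in chr18:54978573-54979579, where 31 of its 132 CG sites were listed in both comparisons. Across them Enshi black pig ranged from 11.9% to 46.9%, Large White pig from 14.0% to 59.1% and wild boar from 53.1% to 90.2%. Each breed was lower at the last of these sites than at the first, and wild boar was above both other breeds at each. These sites span positions 54979011 to 54979324 only, so the gradient is not shown for the whole region. In chr11:18476893-18476998 the first of the 6 CG sites had 81.5% for Enshi black pig, 84.6% for Large White pig and 18.7% for wild boar, and the other 5 had 98.5%, 98.3% and 15.7%. The 4 sites of chr2:98339581-98339652 carried a single level in each breed, and smoothed levels of adjacent sites are not separate measurements.

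Along the genome the regions were spread over all 18 autosomes, with unequal density. Per Mb up to the last listed position, chromosome 12 had 1.28 regions, chromosome 18 had 1.16 and chromosome 6 had 0.881, and the median chromosome had 0.546. The lowest values were 0.322 on chromosome 16 and 0.343 on chromosome 13. The same 3 chromosomes led when the regions were taken as a share of those listed, with 24.4% on chromosome 18, 21.2% on chromosome 6 and 20.7% on chromosome 12, against a median of 17.0% over chromosomes and 12.3% on chromosome 16. Direction varied as well. Chinese wild boar was lower in 42 of 51 regions on chromosome 11 (82.4%) and in 12 of 28 on chromosome 16 (42.9%), against a median of 61.6%. Chromosome 17 had 18 in each direction.

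**Figure D4:**
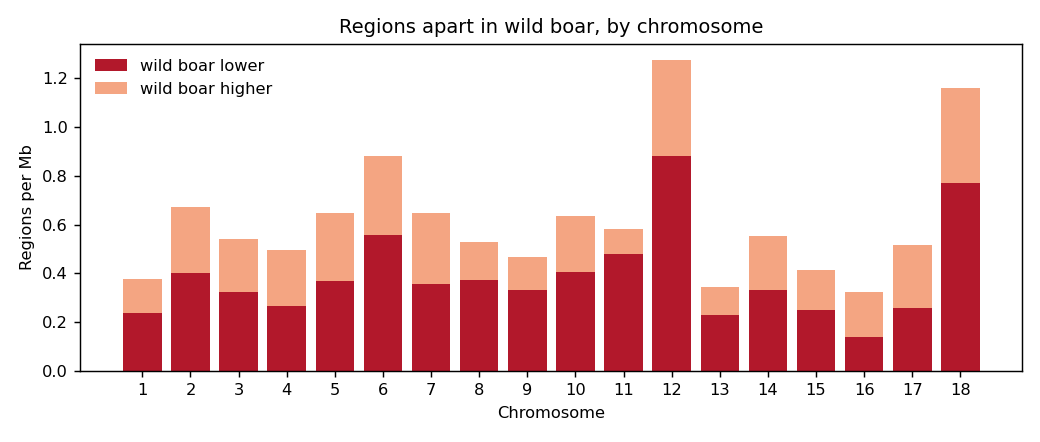
Regions apart in Chinese wild boar per Mb up to the last listed position (y axis) on each autosome (x axis), stacked by direction (dark, wild boar lower; light, wild boar higher). Chromosomes 12 and 18 stand above 1 region per Mb, and chromosome 16 is the lowest at 0.322.

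Neighbouring regions mostly had the same direction. With gaps of at most 10 kb, 118 regions formed 56 runs, 48 of them of a single direction. Part of this is fixed by the rule, since the 34 regions that share a counterpart have its direction. How many runs they fill was not counted. Lower regions made up 62.5% of the 1367, so some neighbours share a direction from that alone, and how many was not tested. The longest run of lower regions had 4, on chromosome 2. Its second region, chr2:7548737-7549388 with 51 CG sites, was the most distinct, at 72.6% for Enshi black pig, 71.9% for Large White pig and 18.7% for wild boar. The others were chr2:7541784-7542332 (wild boar 48.8%), chr2:7549467-7549569 (39.3%) and chr2:7554604-7555123 (39.0%), with Enshi black pig between 60.5% and 89.0%. The longest runs of higher regions had 3 each. On chromosome 4, chr4:138894660-138894912, chr4:138894984-138895255 and chr4:138895306-138895579 lay within 1 kb, with wild boar at 57.5%, 55.4% and 67.3% and both other breeds between 30.9% and 39.8%. On chromosome 6, chr6:62256024-62256184 and chr6:62256292-62256527 shared 1 region of the second list, and chr6:62259866-62260329 was at 6.90% for Enshi black pig, 8.88% for Large White pig and 44.2% for wild boar.

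Over longer distances the longest stretches of consecutive regions with 1 direction held 14 lower regions each, over 24.8 Mb of chromosome 14 and 7.04 Mb of chromosome 6, and a stretch of 13 spanned 9.15 Mb of chromosome 13. Lower regions made up 62.5% of all 1367, and how long a stretch that share alone would give was not tested. The closely spaced end of the stretch on chromosome 6 is described further and was chosen after its values were seen. The window from 151 to 152 Mb held 7 regions, the most of the 908 windows of 1 Mb with any, and all were lower in Chinese wild boar. With the adjoining windows it gave 13 consecutive lower regions from chr6:150986399 to 152691620, a span of 1.71 Mb, and the remaining region of the 14 began at 145654460. The level over the 13 was 31.2% to 95.8% for Enshi black pig (median 78.7%), 38.7% to 95% for Large White pig (83.9%) and 6.24% to 59.7% for wild boar (48.6%). Most were small, with a median of 6 CG sites. Wild boar was lower in 16 of the 20 regions that the list with Enshi black pig holds in this span and in 16 of the 21 in the list with Large White pig. Both counts include the 13 regions or their counterparts, which bound the span and are lower by choice. They are therefore no added evidence for a low stretch. Among the regions of either list in this span other than the 13 or their counterparts, more were higher than lower in wild boar. The 9 regions listed there between Large White pig and Enshi black pig had Enshi black pig lower in 3. The next region, chr6:152797966-152798317, had wild boar higher, at 79.5% against 55.0% and 54.2%. The window from 62 to 63 Mb of the same chromosome held 5 regions, all higher in wild boar, and the first Mb of chromosome 18 held 5, all lower.

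**Figure D5:**
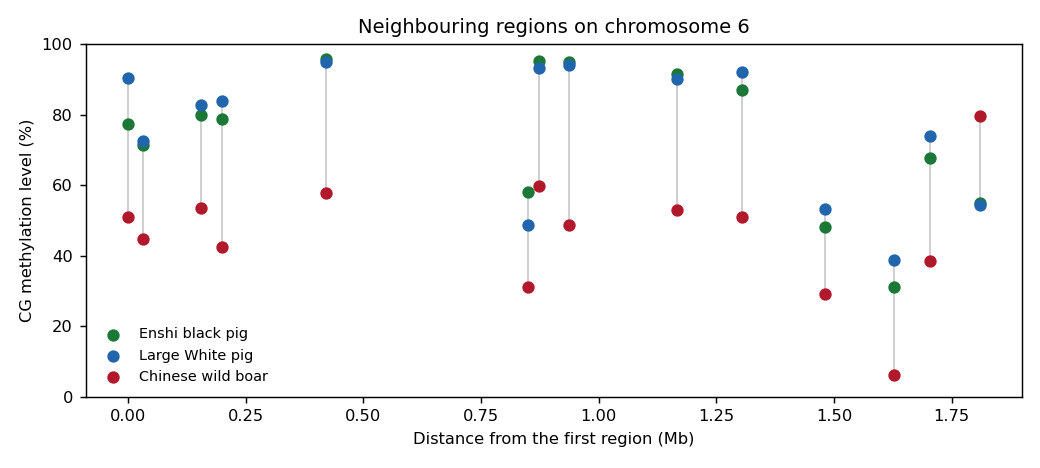
CG methylation level in percent (y axis) of each breed in 14 consecutive regions against distance in Mb from the first (x axis), with the points of 1 region joined by a grey line. Chinese wild boar lies below both other breeds in the first 13 regions, at 6.24% to 59.7%, and above them in the last at 79.5%.

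Gene models on Sscrofa10.2 were at hand for a part of chromosome 1 only, as 2024 loci from the study's long-read transcripts, 53 of them with a gene symbol. Of the 119 regions on chromosome 1, 11 (9.24%) lay at one of these loci, and of all 697 listed regions there 53 did (7.60%). In 7 of the 11 the region was within 2 kb upstream of the transcript and in 4 in an intron, against 22 and 18 of the 53. Among the 7, chr1:97889436-97889487 and chr1:97889678-97889735 lay upstream of the same locus and shared a counterpart. None was in a first exon, where 13 of the 697 lay. None of the 2 kb upstream stretches or first exons with a region belonged to a locus with a symbol, and the loci with one that are named here were chosen after their values were seen. The intronic region chr1:150216189-150216293 lay in CDIN1 (ENSSSCG00000026900), which encodes a nuclease partner of codanin-1 linked to inherited anaemia, and had 98.7% for Enshi black pig, 99.2% for Large White pig and 48.8% for Chinese wild boar over 4 CG sites. The intronic region chr1:146258692-146258745 lay in a long locus assigned to SRP14 (ENSSSCG00000004785), a subunit of the signal recognition particle, with 92.9%, 99.6% and 75.8% in that order.

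Among the loci without a symbol, an intronic region at chr1:18575548-18575906 had the lowest wild boar level of all 855 lower regions. It held 21 CG sites 516 bp after the start of the transcript, at 47.8% for Enshi black pig, 52.4% for Large White pig and 4.63% for wild boar. Another intronic region, chr1:123140652-123140945 with 37 CG sites, was at 42.6% for Enshi black pig, 37.5% for Large White pig and 19.8% for wild boar. Upstream regions went both ways, with 3 lower and 4 higher in wild boar. Of the lower ones, chr1:641974-643006 was at 97.4% for Enshi black pig, 98.7% for Large White pig and 51.4% for wild boar. Of the higher ones, chr1:31405252-31405452 lay between 2 loci transcribed away from it, 788 bp and 336 bp from their starts, at 15.6% for Enshi black pig, 16.4% for Large White pig and 56.3% for wild boar. The strands of both loci were those of the transcript models, and no expression of these loci was analysed here.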

How the data were processed

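The data were the CG sites and regions listed as differing in 3 comparisons of liver methylomes. The authors aligned bisulfite reads (to Sscrofa10.2, with Bismark 0.15.0 among the tools in the submitters' processing notes) and deposited the methylation level of both breeds at each listed site and region as a fraction. What called the differences, and its limits, was not given in the sources used here. Deposited columns of differences, statistics, p-values and false discovery rates hold the authors' comparisons and were not used. Of the deposited errors, the standard error of a site's difference was used for precision only. Counts of reads were not used here, so depth is unknown.

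Fractions were multiplied to percent with Python 3.11.15, numpy 2.4.6 and pandas 2.3.3, intervals came from scipy 1.17.1, and matplotlib 3.10.9 drew the figures. Regions were joined by an overlap of at least 1 bp on chromosomes 1 to 18. A region with 2 counterparts took the one with the largest overlap. Levels under 20% were called low and above 80% high. The steps were checked on simulated data. Named regions were, per direction, the 10 with the widest smaller difference, the 3 with most CG sites, the 3 longest, the longest runs, those nearest the bounds of the rule and those at loci with a symbol. Members, lists and rules were chosen with earlier results of these data known. Gene lists fixed for this work need an annotation of Sscrofa10.2 and were not analysed here, nor was sequence. Alternatives were stricter limits on difference, CG sites, length, overlap and gap, all sequences, rows of the list with Large White pig, and levels averaged over listed sites.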

Additional observations from a re-analysis of the deposited data

Results flagged for a closer look

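Outside the autosomes, the same rule found 188 regions on the X chromosome and 178 on unplaced sequences, which no comparison above uses. Both are given because they are signals in data left aside. On X, Chinese wild boar was lower in 152 and higher in 36, and the 188 were 27.1% of the 694 regions listed there between wild boar and Enshi black pig. On unplaced sequences 105 were lower and 73 higher, which is 21.3% of 834 listed regions. None of the 8 regions listed on Y met the rule.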

How the results depend on the processing

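Each of 21 results was recomputed under the alternatives, and of 157 values 131 were close to those reported, 26 moved and 0 changed direction. Only the share of lower regions could change direction, since counts and medians had a fixed sign. Close means within 1 SD over regions for a median, within the exact binomial interval for the share and within 1.5 times for a count. The SD is wide, so a median of 20 CG sites in lower regions, under the limit of 10 in both lists, counted as close to 10. The moved values come from rules that retain fewer regions or join more of them. With differences of at least 40 points in both lists, 294 lower and 84 higher regions were left, 77.8% of them lower, with a median smaller difference (wild boar minus the other breed) of -49.2 and 46.5 points, against -33.2 and 26.6 over all, 10 and 0 regions in runs, 0.236 regions per Mb on chromosome 12 and 0.161 on the median chromosome. With at least 10 CG sites in both lists there were 383 lower and 266 higher, 59.0% lower, 20 and 15 in runs, and 0.804 and 0.255 per Mb. With at least 200 bp there were 300 and 211, 58.7% lower, 8 and 4 in runs, and 0.583 and 0.208 per Mb. A largest gap of 1 kb left 38 lower regions in runs, and one of 100 kb gave 137 lower and 65 higher. No paired analysis was possible because there was only 1 methylome of each breed, which also bars leaving out a replicate. Which bounds a caller gives depends on depth, which is unknown, and a region absent from a list is not shown to be equal in both breeds.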

Other observations

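In 25 of the 1367 regions the wild boar level was also found, to the last written digit, in another of them, with 11 such levels in all. The commonest was 18.2%, at 4 regions on 4 chromosomes, each with 5 CG sites. Regions named above are among the 25. The 18.2% of chr16:83478264-83478342 is this commonest level, and chr9:18537346-18537402 shares its 19.2% with chr8:54956436-54956521. The 25 regions had a median of 5 CG sites and the other 1342 a median of 11. Recurring levels were found for Large White pig in 50 regions, which include neighbours that share a counterpart, and for Enshi black pig in 6.

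Of the CG sites that both wild boar lists hold, on the autosomes with wild boar on the same side, and that are not listed between Large White pig and Enshi black pig, 2177 (53.6%) lay inside the 1367 regions and 1886 outside. Wild boar was lower at 74.7% of those inside and 64.0% of those outside. Neighbouring sites share smoothed levels, so sites are not independent of each other.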
